A study of Mus musculus with 27 samples.

Results

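Stab1, Stab2, Clec4g, Lyve1, Fcgr2b, Oit3, Kdr, Pecam1, Cdh5 and Gja4 are 10 genes of the liver's endothelial cells, followed here across 27 whole-liver RNA-seq libraries of alcohol-fed mice. They were chosen by symbol, as known genes of liver sinusoidal and vascular endothelium, with earlier results of these data known. They make up 10 of the 17655 genes listed in the deposited tables. All 10 were listed for every mouse and all 10 passed the filter on low counts in every comparison.

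The study asked how the histone demethylase KDM5B acts in the development and resolution of alcohol-associated liver disease in both sexes. Every mouse, controls included, was Kdm5b fl/fl, and every mouse drank alcohol in its water on a Western diet (WDA). In the WDA groups the vector was listed with 8 weeks of WDA. In the resolution (Res) groups 16 weeks of WDA were followed by the vector and 4 weeks of resolution. In the paper, resolution meant a surgical liver biopsy and then a chow diet with plain water. WT mice had received the control AAV vector. KO mice had received AAV-CMV-Cre, whose promoter is not restricted to 1 cell type. HepKO mice had received AAV8-TBG-Cre, whose promoter is active in hepatocytes. There were 9 groups of 3 mice: WT and KO females and males in WDA, the same in Res, and HepKO females in WDA only. The WDA and Res mice belonged to separate experiments (numbered 11 and 12). Stage, experiment, diet, alcohol intake, biopsy, age, length of feeding and timing of the vector therefore cannot be told apart. There was no group that never drank alcohol among these libraries.

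Liver sinusoids are lined by endothelial cells with open pores and no continuous basement membrane. These cells take up waste macromolecules, immune complexes and glycans from blood through scavenger and lectin receptors, and they lose some of these receptors when they turn into a closed, continuous lining, a change known as capillarization in fibrotic liver. Portal vessels and larger veins have a continuous endothelium that shares junction proteins with the sinusoids but lacks many of the uptake receptors.

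Among the uptake receptors, Stab1 (chr14:31139017-31168651, minus strand, GRCm38.p6) and Stab2 (chr10:86841194-87008038, minus strand) encode the scavenger receptors stabilin-1 and stabilin-2. Stabilin-2 binds hyaluronan. Clec4g (chr8:3707066-3720695) encodes the C-type lectin LSECtin, Lyve1 a hyaluronan receptor, and Fcgr2b the inhibitory IgG receptor that clears small immune complexes. Oit3 encodes a secreted protein with a zona pellucida domain and is used as a marker of the sinusoidal cells. Kdr encodes the main signalling receptor for VEGF-A. Pecam1 and Cdh5 (VE-cadherin) encode adhesion proteins of endothelial cell contacts, and Gja4 (chr4:127311420-127314039, minus strand) encodes connexin 37, a gap junction protein of arterial endothelium.

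The promoters of Stab1, Stab2, Clec4g and Gja4 are shown because the results turn on these genes: the stabilins and Clec4g in the libraries described next, Stab1 between stages, and Gja4 in females. They cover 250 bases before to 50 after the RefSeq start on GRCm38.p6, on the strand of the gene. Of the 10 members, 6 had an entry in the RefSeq promoter table. Capitals mark the letters AGGAAG, a longer form of the GGAA core that ETS factors of endothelial cells can bind, or their reverse complement CTTCCT. Other GGAA letters were not marked or counted.
Stab1 (chr14:31168592-31168891): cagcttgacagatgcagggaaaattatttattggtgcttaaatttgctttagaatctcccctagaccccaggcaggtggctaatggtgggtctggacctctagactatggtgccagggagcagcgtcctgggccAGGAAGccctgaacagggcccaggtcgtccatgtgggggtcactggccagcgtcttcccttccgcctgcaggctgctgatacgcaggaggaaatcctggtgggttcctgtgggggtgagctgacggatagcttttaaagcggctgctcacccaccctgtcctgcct
Stab2 (chr10:87007893-87008192): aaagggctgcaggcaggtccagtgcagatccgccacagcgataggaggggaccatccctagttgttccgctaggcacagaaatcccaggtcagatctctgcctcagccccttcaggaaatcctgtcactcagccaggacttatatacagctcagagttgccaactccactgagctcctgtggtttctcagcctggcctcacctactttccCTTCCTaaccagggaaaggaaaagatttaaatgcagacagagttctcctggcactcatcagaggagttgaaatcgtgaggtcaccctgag
Clec4g (chr8:3720602-3720901): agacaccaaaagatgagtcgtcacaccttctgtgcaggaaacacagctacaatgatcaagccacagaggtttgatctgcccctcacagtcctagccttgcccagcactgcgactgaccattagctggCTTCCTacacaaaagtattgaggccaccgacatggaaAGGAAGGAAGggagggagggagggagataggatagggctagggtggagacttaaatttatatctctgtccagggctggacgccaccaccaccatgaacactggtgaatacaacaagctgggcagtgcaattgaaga
Gja4 (chr4:127313990-127314289): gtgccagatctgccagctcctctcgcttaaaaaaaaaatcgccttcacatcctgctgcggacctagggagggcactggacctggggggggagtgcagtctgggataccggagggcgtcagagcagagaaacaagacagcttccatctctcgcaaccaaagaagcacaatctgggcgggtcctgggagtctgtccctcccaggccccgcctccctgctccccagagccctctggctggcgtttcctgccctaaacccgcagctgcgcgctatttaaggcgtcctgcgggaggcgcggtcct
The ETS letters were present on either strand in 3 of the 6 promoters, against 35.4% of the 32851 promoters in the table. Clec4g held them at positions -123, -86 and -82 from the start, the last pair overlapping, Stab1 at -116 and Stab2 at -40. The Gja4, Kdr and Fcgr2b windows held none. TATAAA, read on both strands, was found in the Clec4g window at -31 only, against 13.6% of all promoters. The GATA factor letters AGATAA, present in 11.2% of all promoters, were in none of the 6. The same was true of the SOX letters AACAAT (10.7%) and of the FOX letters GTAAACA (3.65%). A match describes letters in this window and not a bound site.

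The libraries held between 14634602 and 19388251 counts. Albumin (Alb) was the most abundant transcript in every library, and summed CPM (counts scaled to a common library size) of 4 Y-linked genes separated the 12 males (87.6 to 156.7) from the 15 females (0.350 to 2.11). Kdm5b itself was lower on average in every Cre group than in its WT group: 18.1 ± 5.20 (KO) and 13.3 ± 4.63 (HepKO) against 26.0 ± 4.94 CPM in WDA females, 21.5 ± 0.789 against 24.3 ± 0.709 in WDA males, 12.0 ± 1.26 against 17.1 ± 0.442 in Res females and 12.6 ± 4.62 against 19.2 ± 0.451 in Res males (SD, n = 3). In WDA females KO mouse 1, at 24.1 CPM, lay within the WT range of 21.5 to 31.2. edgeR did not call Kdm5b in any comparison of a Cre group with its WT group, but it called 0.00% of all genes in each of them. The missing call therefore cannot tell whether Kdm5b was lost. For the knockout the paper shows KDM5B immunostaining, a protein measure that these libraries do not hold.

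Before any comparison, 5 libraries stood apart. The summed CPM of 6 bile duct markers (Krt7, Krt19, Epcam, Sox9, Spp1 and Cldn4) was 535.1 in KO WDA male 17, 469.5 in WT WDA female 7, 237.5 in WT Res female 13, 198.2 in KO Res male 5 and 157.1 in WT Res male 9. The other 22 mice lay between 16.6 and 106.2. The sum mostly follows Spp1, at 128.8 to 479.5 CPM in the 5 libraries, where no other marker exceeded 21.1. Each marker except Krt7 was still higher in all 5 than in any of the 22. The first principal component over 13534 genes, with 30.5% of the variance, put the same 5 at 46.0 to 85.7 and the rest at -34.1 to 9.34. KO Res male 5 also had the lowest depth. Results are given with and without these 5 libraries. They were singled out by markers measured in the same libraries, so their values are described without a test.

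In the 5 libraries Clec4g, Stab2, Oit3 and Kdr were each lower than in every other mouse of the same group. Clec4g was at 18.2 CPM in WT WDA female 7, 17.5 in WT Res female 13, 23.1 in WT Res male 9, 23.5 in KO WDA male 17 and 25.4 in KO Res male 5. In the other 22 mice Clec4g lay between 35.6 and 56.5 CPM, so the 2 ranges did not meet. Stab2 lay between 48.2 and 59.4 CPM in the 5 libraries, and the remaining mice reached down to 53.4 and up to 118.9. Over all 13534 genes, 9.47% were the lowest of their own group in all 5 libraries and 12.7% the highest.

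None of the other members was the lowest of its group in all 5 libraries, and they differed among themselves. Stab1 was the highest of its group in 4 of the 5 libraries, by small margins (63.8 against 63.8 CPM as printed in WT Res female 13), and the lowest in KO Res male 5. Its values overlapped those of the rest (31.8 to 83.6 CPM). Lyve1 was the highest of its group in 3 of the 5 and Pecam1 in 2, while Fcgr2b and Cdh5 were the lowest in 4 and Gja4 in 3. In WT Res male 9 Stab1 was at 66.9 CPM, with 63.8 and 66.6 in mice 7 and 8, while Stab2 was at 48.2, with 71.6 and 70.3. In this group Stab2 was thus clearly lowest in mouse 9, while Stab1 hardly differed between the mice.

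**Figure D1:**
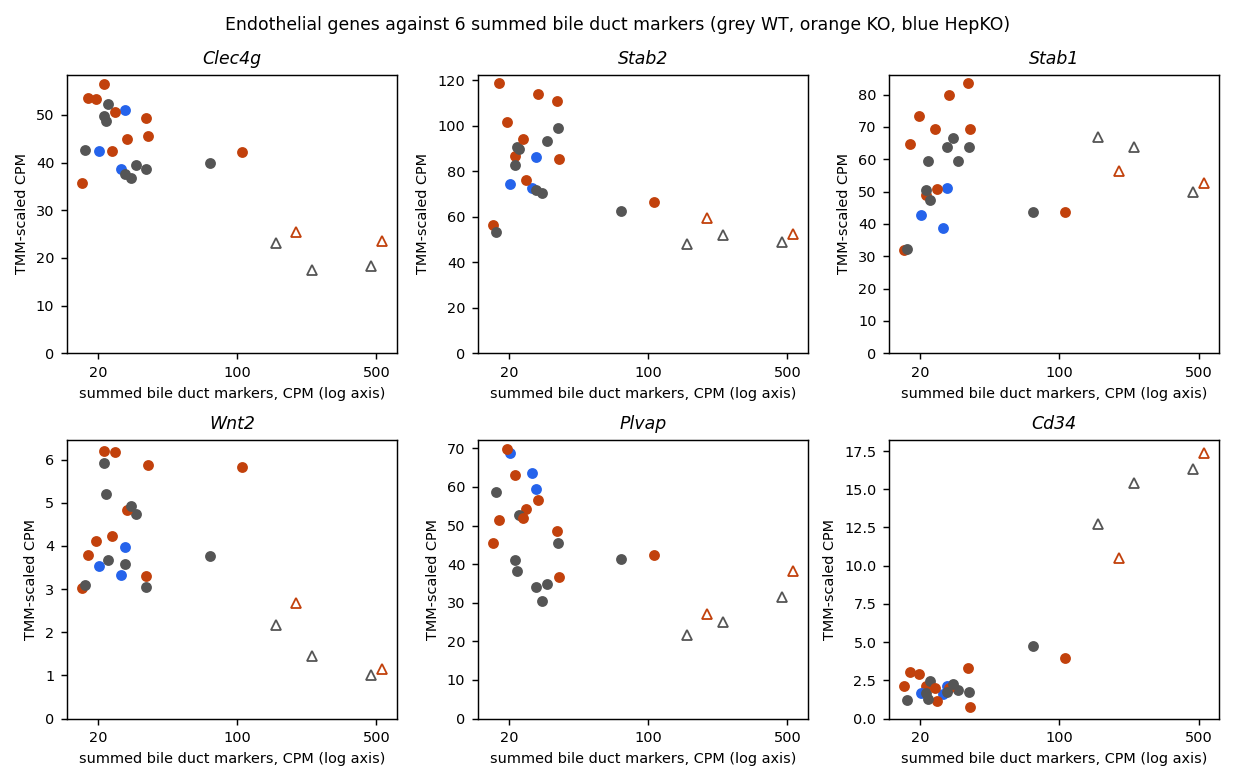
CPM of Clec4g, Stab2, Stab1, Wnt2, Plvap and Cd34 (vertical axes) against the summed CPM of 6 bile duct markers (horizontal axis, log scale) in 27 mice; points are mice, coloured grey for WT, orange for KO and blue for HepKO, and open triangles mark the 5 libraries that stand apart. Clec4g is between 17.5 and 25.4 CPM in those 5 and between 35.6 and 56.5 in the others, whereas Stab1 overlaps and Cd34 is between 10.5 and 17.4 against 0.727 to 4.74.

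Other endothelial genes in the same 5 livers took different places within their groups. Of 19 further sinusoidal genes, 10 were the lowest of their group in all 5 libraries and 0 the highest. Wnt2, a Wnt ligand of central sinusoidal cells, was at 1.02 to 2.68 CPM against 3.03 to 6.20 in the rest, Ehd3, an endocytic adaptor, at 32.0 to 50.9 against 55.5 to 116.4, and Dnase1l3, a secreted nuclease, at 32.5 to 43.5 against 49.7 to 95.0. Of 22 genes of general or continuous vessels, 6 were the highest of their group in all 5, 2 the lowest (Plvap and Ptprb) and 14 neither. Cd34, a sialomucin of continuous endothelium and of other progenitor cells, was at 10.5 to 17.4 CPM against 0.727 to 4.74. Gja5, the partner connexin of Gja4 in arteries, was at 0.730 to 3.35 against 0.0587 to 1.16, and Vwf, von Willebrand factor, at 11.3 to 18.8 against 5.75 to 13.3. Plvap, which forms the diaphragms of endothelial pores, was the lowest of its group in all 5, at 21.7 to 38.1 against 30.5 to 69.8. The 9 genes listed here as basement membrane genes include Cav1, which encodes the caveolar protein caveolin-1 and not a basement membrane component. Of the 9, 3 (Lama4, Nid1 and Cav1) were the highest in all 5.

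Markers of other cells moved with them. The 6 bile duct markers, whose sum singled out the 5 libraries, were each the highest of their group there, which that choice made likely. All 3 lymphatic endothelial markers (Pdpn, Ccl21a and Mmrn1) were also the highest of their group in the 5 libraries. So were 3 of 7 recruited macrophage markers and 4 of 10 stellate cell markers. The stellate cell genes Reln and Ecm1 went the other way and were the lowest of their group in all 5, at 36.3 to 54.3 and 43.3 to 87.3 CPM, as were 4 of 8 Kupffer cell markers. Clec4f, a Kupffer cell lectin, was at 24.6 to 47.2 CPM against 67.4 to 140.8. What part these cells had in the endothelial values was not tested, and in whole liver fewer endothelial cells and less RNA per cell cannot be told apart.

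Per transcript length, in FPKM (fragments scaled by transcript length and library size), Fcgr2b had the highest level, 43.2 ± 7.80, followed by Clec4g at 40.0 ± 9.05 (SD, n = 27). Stab2 (13.5 ± 3.12), Oit3 (12.7 ± 2.55), Kdr (10.9 ± 2.36), Cdh5 (9.43 ± 1.78), Pecam1 (9.05 ± 1.88), Lyve1 (8.06 ± 3.35) and Stab1 (7.33 ± 1.90) followed, and Gja4 was lowest at 5.31 ± 2.36. Only the step from Clec4g to Stab2 held in all 27 mice. Fcgr2b exceeded Clec4g in 15 mice, Cdh5 exceeded Pecam1 in 17, Stab2 exceeded Oit3 in 18 and Lyve1 exceeded Stab1 in 15, so these neighbours did not differ beyond their spread. Behind these levels stood 41 to 291 counts per library for Gja4, the sparsest member, and 899 to 2166 for Stab2, the most counted.

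Variation between mice differed among the members. From the lowest to the highest of the 27 mice, Pecam1 spanned 1.87-fold in CPM and Lyve1 4.24-fold, with Gja4 the widest at 6.77-fold. The coefficient of variation ran from 17.1% for Pecam1 to 47.4% for Gja4. The plot of CPM per mouse shows the 3 KO Res females as the 3 highest mice for Gja4.

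**Figure D2:**
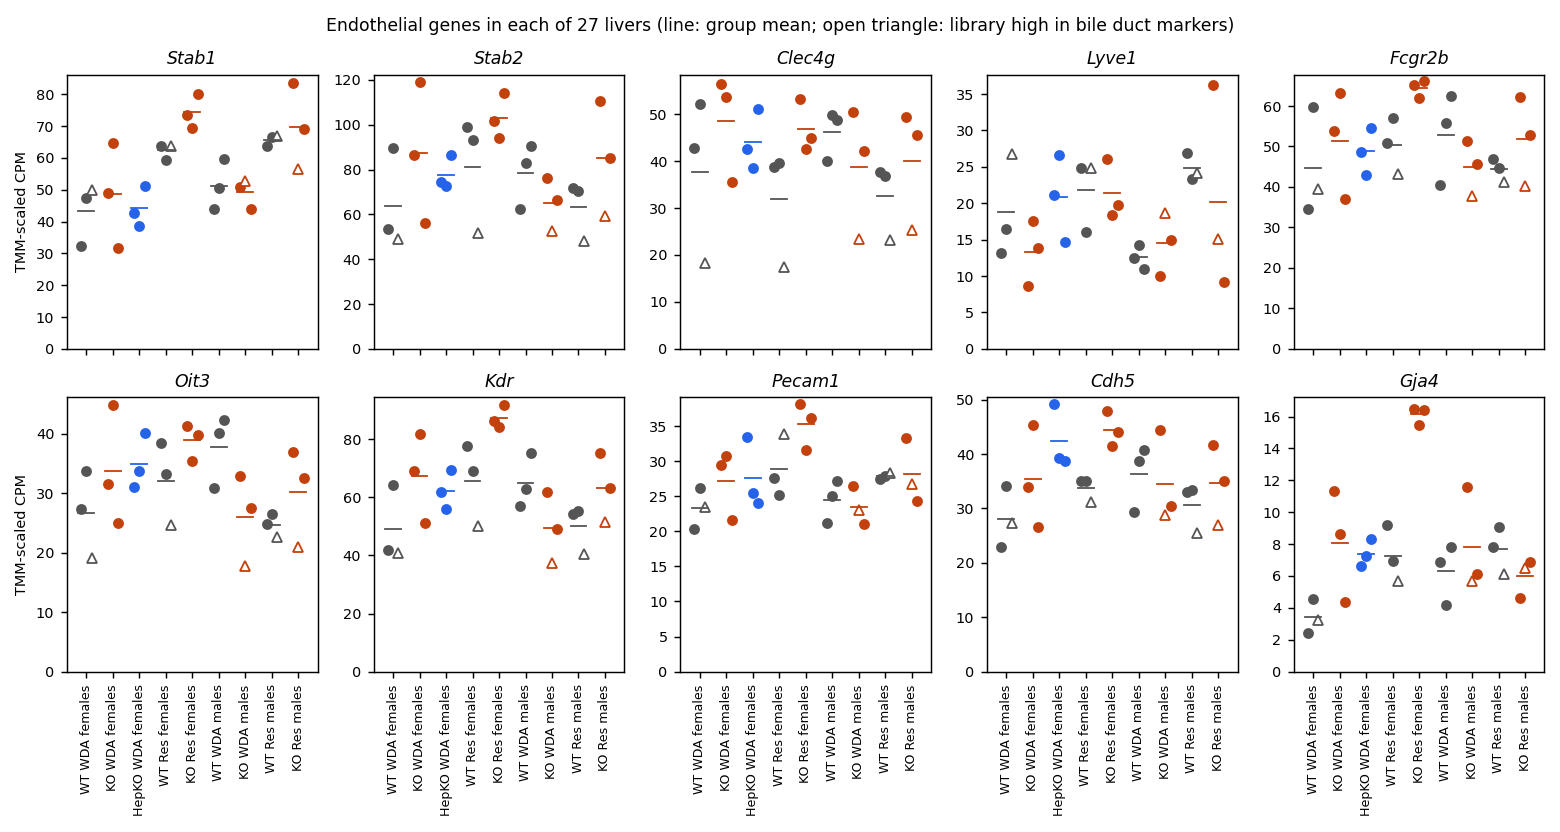
TMM-scaled CPM of the 10 members in each of 27 mice, by group (3 mice per group); grey, orange and blue points are WT, KO and HepKO, open triangles are the 5 libraries that stand apart, and lines are group means. Stab1 has higher means in the Res groups (62.4 to 74.3 CPM) than in the WDA groups (43.2 to 51.3), and Gja4 is at 15.5 to 16.5 CPM in the KO Res females.

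After 4 weeks of resolution, Stab1, Lyve1, Pecam1 and Gja4 were higher than in the WDA mice, and the other 6 members did not pass the test. Stab1 lay between 31.8 and 64.8 CPM (median 49.5) in the 12 WDA mice with WT or KO vector and between 56.5 and 83.6 (median 66.7) in the 12 Res mice. The lowest Res mouse for Stab1 was KO Res male 5, and the overlap was with KO WDA female 2 and WT WDA male 21. Stab1 rose by 0.50 ± 0.10 on the log2 scale (SE), and by 0.57 without the 5 libraries. Its Benjamini-Hochberg adjusted p from the quasi-likelihood test of edgeR was 0.00107.

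Lyve1 lay between 8.57 and 26.8 CPM (median 14.1) in WDA and between 9.20 and 36.3 (median 23.7) in Res. The WDA maximum was WT WDA female 7, 1 of the 5 libraries, and the lowest mice of both stages lay close together, so the ranges overlapped widely. Lyve1 rose by 0.59 ± 0.19 (edgeR adjusted p = 0.0232) and by 0.75 without the 5 libraries. Pecam1 lay between 20.4 and 30.7 CPM (median 24.3) in WDA and between 24.3 and 38.2 (median 28.1) in Res, a rise of 0.28 ± 0.08 (edgeR adjusted p = 0.00963). Gja4 lay between 2.44 and 11.6 CPM (median 5.91) in WDA and between 4.62 and 16.5 (median 7.39) in Res, a rise of 0.50 ± 0.17 (edgeR adjusted p = 0.0282). The Gja4 call was lost without KO WDA male 18, without WT WDA male 20 and without WT Res female 1, with edgeR adjusted p-values of 0.0506, 0.0513 and 0.0571; over all 24 mice left out in turn they ran from 0.00808 to 0.0571. All 4 genes passed without the 5 libraries (edgeR adjusted p = 0.00106 for Stab1, 0.00779 for Lyve1, 0.0381 for Pecam1 and 0.0425 for Gja4).

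These 4 of 10 members compare with 14.1% of the 13519 genes tested that were called higher in Res, and no member was called lower against 15.7% of all genes. No member separated the 12 Res from the 12 WDA mice without overlap, nor did most genes (0.215% were fully higher and 0.385% fully lower). The log2 change was above 0 for 9 members against 50.4% of all genes, with a median of 0.18 against 0.00. Clec4g was the exception, at -0.19 ± 0.18. Stab2 (0.17 ± 0.15), Kdr (0.19 ± 0.11), Fcgr2b (0.11 ± 0.11), Cdh5 (0.09 ± 0.10) and Oit3 (0.02 ± 0.13) lay within about 2 standard errors of 0. Lyve1 and Pecam1 missed the threshold when library totals were used without scaling factors (edgeR adjusted p = 0.0828 and 0.0662) and in limma on log2 FPKM (0.0795 and 0.0724), while Stab1 and Gja4 passed in both. Over these and the other settings, the removal of the 5 libraries included, the edgeR adjusted p of Lyve1 ran from 0.00779 (without those libraries) to 0.0828. The adjusted p of Pecam1 ran from 0.00277 (DESeq2) to 0.0724 (limma on log2 FPKM).

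**Figure D3:**
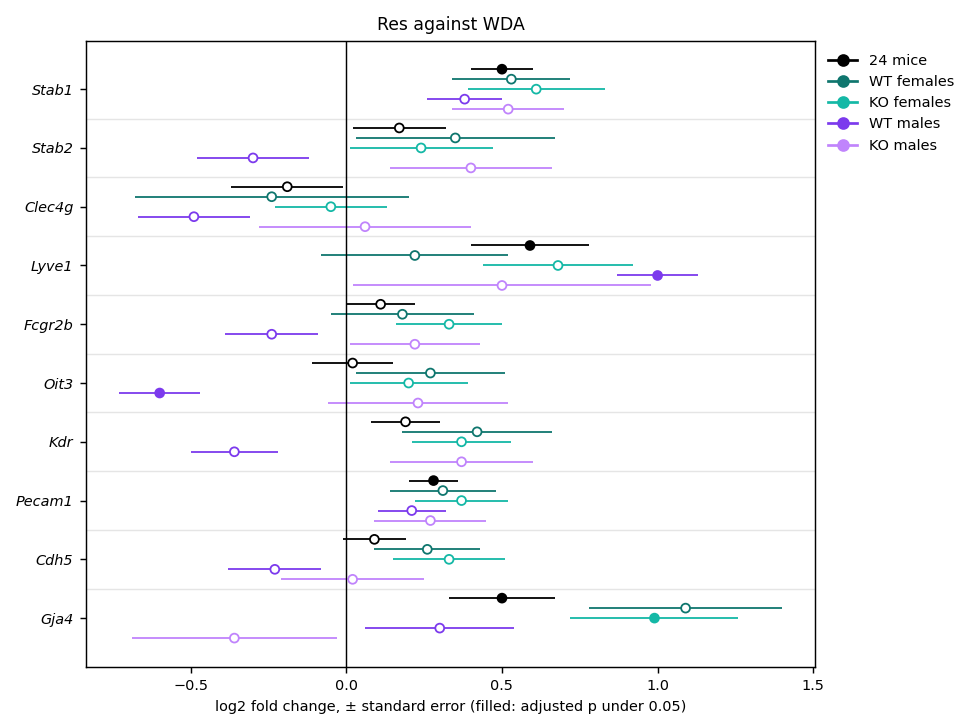
Log2 fold change of each member in Res against WDA (horizontal axis; bars ± SE) in 24 mice and in each pair of groups; filled points have an edgeR adjusted p under 0.05. Stab1 is above 0 in all 4 pairs (0.38 to 0.61), whereas Gja4 is near 1 in both female pairs and at 0.30 and -0.36 in the male pairs.

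Other endothelial genes showed a mixture of directions between Res and WDA, and the same 24 mice showed more lymphocyte transcripts. Of the 19 further sinusoidal genes 4 were called higher and 2 lower, with a median of -0.01. The 4 were the VEGF-C receptor Flt4 (0.49), Adam23 (0.49) and the iron-regulating ligands Bmp6 (0.37) and Bmp2 (0.34), and the 2 were the chemokine-binding receptor Gpr182 (-0.49) and Fam167b (-0.39). Of 21 vascular genes tested, the guidance receptor Robo4 (0.55) and the junction protein Esam (0.46) rose and the adhesion molecule Icam2 (-0.45) fell. Of 19 signalling genes tested, Notch1 (0.59), the semaphorin and VEGF co-receptor Nrp2 (0.55) and the VEGF receptor Flt1 (0.51) rose. None of the 9 genes of the basement membrane list, Cav1 included, was called. The B cell markers Cd79b (by 0.83), Cd79a (by 0.79) and Ms4a1 (by 0.76) rose, as did 4 of 5 T and NK cell markers (Cd8a by 1.65, Cd3e by 1.31, Gzma by 1.11 and Nkg7 by 0.87). The summed T and NK cell CPM ran from 1.38 to 6.28 in WDA and from 1.89 to 10.4 in Res. Pecam1 and Fcgr2b are also expressed by leukocytes, including B cells in the case of Fcgr2b, and Stab1 and Lyve1 by some macrophages. Of 8 Kupffer cell markers only the scavenger receptor Marco (1.43) was called, of 7 recruited macrophage markers 0, and of 3 lymphatic markers 0. Of the stellate cell markers Colec11 fell by 0.20, and of the hepatocyte markers Alb rose by 0.46. The part of these cells in the member values was not tested.

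Within single groups the calls were fewer and differed. In WT males 2 members were called, 1 in each direction, where 4.99% of genes were called higher and 5.98% lower. Lyve1 was at 12.5, 14.3 and 10.9 CPM in WDA mice 19, 20 and 21 and at 26.9, 23.4 and 24.1 in Res mice 7, 8 and 9. Oit3 was at 30.9, 40.2 and 42.3 in the same WDA mice and at 24.9, 26.6 and 22.7 in the Res mice. The groups did not overlap for either gene. Lyve1 rose by 1.0 ± 0.13 (edgeR adjusted p = 0.00636) and Oit3 fell by 0.60 ± 0.13 (edgeR adjusted p = 0.0277). Without WT Res male 9 the changes were 1.02 and -0.53 and both passed (0.00273 and 0.0324). The Oit3 call was lost when WT WDA male 20 or 21 or WT Res male 7 or 8 was left out, and neither passed when the spread was shared by all 9 groups (edgeR adjusted p = 0.159 for Lyve1 and 0.178 for Oit3). Over the mice left out the edgeR adjusted p ran from 0.00273 to 0.0461 for Lyve1 and from 0.0293 to 0.129 for Oit3, and over the other settings from 2.80e-07 to 0.159 and from 0.00345 to 0.178.

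Stab1 and Pecam1 also did not overlap between the WT male groups, both higher in Res, and Clec4g and Kdr both lower. With Lyve1 and Oit3 this made 3 members fully higher and 3 fully lower, where 16.5% and 19.6% of all genes were. Stab1 changed by 0.38 ± 0.12, Clec4g by -0.49 ± 0.18 and Kdr by -0.36 ± 0.14, none past the edgeR threshold (adjusted p = 0.0713, 0.107 and 0.128). Beside them the sinusoidal genes Ehd3 (-1.03) and Gpr182 (-0.80) were called lower. The basement membrane gene Nid2 (0.97) and the monocyte genes Itgax (1.96), Ccr2 (1.40) and Lyz2 (0.95) were called higher. So were the T and NK cell genes Cd8a (1.94), Cd3e (1.79) and Nkg7 (1.66) and the bile duct gene Sox9 (1.95). At most 4 called genes per list are named, so they do not stand for whole lists.

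In KO females Gja4 was called higher in Res, with 11.3, 8.62 and 4.37 CPM in WDA mice 1, 2 and 3 and 16.5, 15.5 and 16.4 in Res mice 2, 3 and 4. The Res mice lay close together, above all WDA mice. The log2 change was 0.99 ± 0.27 (edgeR adjusted p = 0.0309), where 10.2% of genes were called higher. This call was lost when any of the 3 Res mice was left out, and also without KO WDA female 2; in that last case Stab1, Lyve1, Kdr and Cdh5 passed in its place (edgeR adjusted p = 0.0176, 0.0337, 0.0466 and 0.0395). The edgeR adjusted p of Gja4 ran from 0.00865 to 0.0878 over the mice left out and from 0.00258 to 0.0415 over the other settings. Stab1, Lyve1, Kdr and Pecam1 joined Gja4 as fully higher in the Res mice, 5 members where 20.1% of all genes were. Further endothelial genes called higher in KO females were Clec1b (0.71), Flt4 (0.75), Bmp2 (0.61) and Bmp6 (0.59), the vascular genes Robo4 (0.77), Esam (0.67) and Cd93 (0.60), and Flt1 (0.67) with the flow-responsive factors Klf2 (1.01) and Klf4 (1.56). Of the 8 Kupffer cell genes listed, Marco (2.07) and Vsig4 (0.79) rose in the same mice, and of the 3 lymphatic genes Mmrn1 fell by 1.63. Of the other cell markers, the macrophage genes Itgax (2.04), Trem2 (1.85) and Lyz2 (0.51), the B cell gene Cd79b (1.32), the stellate cell genes Reln (0.56) and Ecm1 (0.43) and the hepatocyte genes Alb (0.74) and Ass1 (0.66) were called higher as well. At most 4 called genes per list are named, so they do not stand for whole lists, and 20.4% of all genes were called. The part of these cells in the member values was not tested.

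In WT females edgeR called 0 members and 0.00% of genes, and DESeq2 called 0 members. Of the members 2 had an unadjusted p under 0.05, as had 13.6% of genes. Gja4 was at 2.44, 4.57 and 3.24 CPM in WDA mice 5, 6 and 7 and at 9.18, 6.97 and 5.69 in Res mice 1, 12 and 13. Stab1 was at 32.2 and 47.4 CPM in WDA mice 5 and 6 and at 63.8, 59.4 and 63.8 in the Res mice, with WDA mouse 7 between mouse 6 and the Res mice. Both were fully higher in Res, as were 10.1% of genes. Gja4 changed by 1.09 ± 0.31 (edgeR adjusted p = 0.248) and Stab1 by 0.53 ± 0.19 (0.305). In KO males edgeR and DESeq2 called 0 members (0.00% of genes by edgeR), with 1, Stab1, under an unadjusted p of 0.05 (6.43% of genes). Stab1 was again fully higher (50.9, 52.7 and 43.8 CPM in WDA mice 16, 17 and 18 against 83.6, 56.5 and 69.2 in Res mice 11, 5 and 6; 6.77% of genes), with a change of 0.52 ± 0.18 and an edgeR adjusted p of 0.682. Stab1 was the only member whose Res mice lay above its WDA mice in all 4 pairs of groups. The 4 pairs enter the 24-mouse test and are not further evidence for it.

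The Gja4 change in Res was near 1 on the log2 scale in both female pairs, and 0.30 and -0.36 in WT and KO males. In WT males it was at 6.87, 4.17 and 7.83 CPM in WDA and 7.81, 9.07 and 6.14 in Res. In KO males it was at 11.6, 5.68 and 6.14 in WDA and 4.62, 6.51 and 6.90 in Res. The difference between the sexes in the Res against WDA change was -1.09 ± 0.33 and did not pass (edgeR adjusted p = 0.274; 0.0993 to 0.428 over other settings and 0.156 to 0.514 over mice left out), so the sexes were not shown to differ. This test called 0.118% of genes and 0 members, with 1 member, Gja4, under an unadjusted p of 0.05 (7.07% of genes).

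edgeR called no member for a Cre vector against the control vector in any group, while DESeq2 called Gja4 in Res females and for HepKO in WDA females. In Res females, edgeR called 0 members and 0.00% of all genes (DESeq2 called 1 member, and 1.84% of genes higher), while 4 members and 19.2% of genes had an unadjusted p under 0.05. Gja4 was at 9.18, 6.97 and 5.69 CPM in WT mice 1, 12 and 13 and at 16.5, 15.5 and 16.4 in KO mice 2, 3 and 4. Every KO mouse lay above every WT mouse, and the KO mean of 16.1 ± 0.509 compared with 7.28 ± 1.77 (SD, n = 3). The log2 change was 1.11 ± 0.18 with an edgeR adjusted p of 0.0794. DESeq2 called it (adjusted p = 1.37e-04), edgeR with a spread shared by all groups called it (0.0361) and edgeR without WT Res female 1 called it (0.0134). Over all other settings the adjusted p ran from 1.37e-04 to 0.125 and over mice left out from 0.0134 to 0.314. Without WT Res female 13, 1 of the 5 libraries, the change was 0.97 with an edgeR adjusted p of 0.121.

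The other members in Res females were mostly above WT. Cdh5 was at 35.1, 35.0 and 31.1 CPM in WT mice 1, 12 and 13 and at 47.9, 41.5 and 44.1 in KO mice 2, 3 and 4 (0.36 ± 0.11; edgeR adjusted p = 0.155). Kdr was at 77.6, 69.0 and 50.1 against 86.2, 84.2 and 91.7 (0.37 ± 0.16) and Fcgr2b at 50.8, 57.0 and 43.2 against 65.1, 62.1 and 66.2 (0.31 ± 0.13). With Stab1, Clec4g and Gja4 they made 6 members whose KO mice all lay above the WT mice, where 13.8% of genes were fully higher. The median change was 0.31 over the members and -0.02 over all genes. The 3 KO mice held 19.6 to 28.0 summed CPM of bile duct markers, and the WT mice 30.9, 35.0 and 237.5. Without WT Res female 13 Clec4g changed by 0.23 in place of 0.52, Stab2 by 0.07 in place of 0.30 and Kdr by 0.22 in place of 0.37. Without it Cdh5 changed by 0.31 in place of 0.36, Stab1 by 0.24 in place of 0.21 and Pecam1 by 0.39 in place of 0.25.

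None of the further endothelial or marker genes was called in Res females. Of 19 sinusoidal genes 15 were above 0 (median 0.26), and of 20 vascular genes tested 12 (median 0.12). All 9 genes of the basement membrane list, Cav1 included (median -0.34), and all 7 recruited macrophage markers (median -0.55) were below 0. All 8 Kupffer cell markers were above 0 (median 0.71). For HepKO against WT in WDA females the corresponding medians were 0.20 for the sinusoidal, -0.09 for the vascular and -0.48 for the basement membrane genes, 0.84 for the Kupffer cell and -2.21 for the recruited macrophage markers, again with 0 genes called by edgeR. The summed recruited macrophage CPM of the WT mice there was 95.1, 113.7 and 897.2, against 118.9 to 203.3 in HepKO. In both comparisons a library that stands apart was among the WT mice, and its part in these medians was not tested.

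In WDA females the comparisons of KO and of HepKO with WT share the 3 WT mice. Gja4 was at 2.44, 4.57 and 3.24 CPM in WT mice 5, 6 and 7, at 11.3, 8.62 and 4.37 in KO mice 1, 2 and 3 and at 6.63, 7.23 and 8.33 in HepKO mice 13, 14 and 15. KO mouse 3 lay within the WT range and the HepKO mice lay above it. The change was 1.22 ± 0.40 for KO (edgeR adjusted p = 0.978) and 1.10 ± 0.26 for HepKO (edgeR adjusted p = 0.271; 0.0228 in DESeq2 to 0.532 over settings, and 0.0624 to 0.816 over mice left out). edgeR called 0 members and 0.00% of genes in both, with 1 member under an unadjusted p of 0.05 for KO (3.11% of genes) and 2 for HepKO (10.1% of genes). DESeq2 called 0 members for KO and 1, Gja4, for HepKO, where it called 1.01% of genes higher.

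The second HepKO gene was Cdh5, at 22.9, 34.2 and 27.3 CPM in WT and 49.1, 39.2 and 38.7 in HepKO, fully higher with Gja4 (9.62% of genes). Cdh5 changed by 0.58 ± 0.18 (edgeR adjusted p = 0.378). All 10 members were above 0 for HepKO, with a median of 0.26, and 9 for KO, with a median of 0.32, against -0.02 over all genes in each, of which 47.0% and 46.6% were above 0. With library totals as the only scaling 7 were above 0 for HepKO (median 0.15 against -0.17) and 9 for KO (0.23 against -0.13). Most members rose and fell together within groups, so these counts are not independent. WT mouse 7 was 1 of the 5 libraries. Without it Clec4g changed by -0.11 in place of 0.22 for HepKO and by 0.03 in place of 0.35 for KO, whereas Gja4 stayed at 1.07 (edgeR adjusted p = 0.0624) and 1.20 (0.786). HepKO against KO called 0 members and 0.0162% of genes; Lyve1 (0.64 ± 0.27, edgeR adjusted p = 0.859) was the 1 member under an unadjusted p of 0.05 (5.74% of genes), and Gja4 differed by -0.14 ± 0.29.

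**Figure D4:**
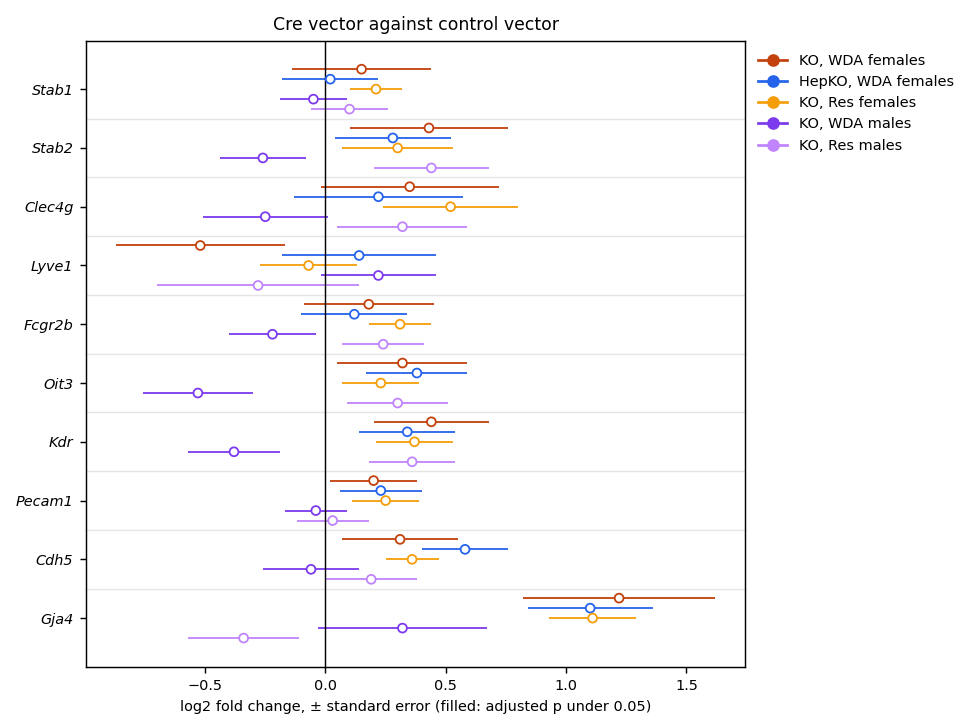
Log2 fold change of each member (horizontal axis; bars ± SE) for KO against WT in 4 sex and stage groups and for HepKO against WT in WDA females; no point is filled, since no edgeR adjusted p was under 0.05. Gja4 is between 1.10 and 1.22 in the 3 female comparisons and at 0.32 and -0.34 in males.

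In males KO against WT also gave 0 members, and 0.00% of genes, by edgeR in both stages, with 0 members under an unadjusted p of 0.05 (7.71% of genes in WDA and 1.45% in Res) and 0 called by DESeq2. In WDA males 2 of 10 members were above 0 (median -0.14), against 49.5% of genes, with Oit3 at -0.53 ± 0.23 and Kdr at -0.38 ± 0.19. With library totals as the only scaling 5 members were above 0 and with FPKM 6, and the members stayed below all genes in median (0.05 against 0.21 and 0.08 against 0.17; -0.14 against -0.00 with TMM). Oit3 was at 30.9, 40.2 and 42.3 CPM in WT mice 19, 20 and 21 and at 32.9, 17.7 and 27.5 in KO mice 16, 17 and 18, and the lowest value belonged to mouse 17, 1 of the 5 libraries. Without it the Oit3 change was -0.32. In Res males 8 members were above 0 (median 0.21), against 52.4% of genes, and Gja4 was at -0.34 ± 0.23.

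The difference between the sexes in the KO against WT change was largest for Gja4 in Res, at -1.50 ± 0.46, and did not pass (edgeR adjusted p = 0.197; 0.0873 to 0.309 over other settings and 0.0764 to 0.529 over mice left out). It called 0 members and 0.0592% of genes, with 1 member, Gja4, and 11.4% of genes under an unadjusted p of 0.05. In WDA the same test gave -0.85 ± 0.32 for Kdr and -0.88 ± 0.36 for Oit3 with 0 members and 0.00% of genes called; these 2 members, and 14.5% of genes, had an unadjusted p under 0.05. Without the 5 libraries the differences were -0.56 and -0.46. The KO against WT change did not differ between stages for any member past the threshold (0.00% of genes called; 0 members and 3.20% of genes under an unadjusted p of 0.05). DESeq2 called 0 members in each of these tests of a difference. With both sexes in 1 fit per stage, edgeR and DESeq2 again called 0 members. In WDA, where edgeR called 0.00% of genes and 2.90% had an unadjusted p under 0.05, Gja4 was the 1 such member (0.78 ± 0.24, edgeR adjusted p = 1.0), and in Res, with 0.0740% of genes called and 10.2% under an unadjusted p of 0.05, it was Kdr (0.38 ± 0.16, edgeR adjusted p = 0.411).

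Sex alone, over the same 24 mice, called 0 members, against 5.30% of genes higher and 5.99% lower in males, and no member had an unadjusted p under 0.05, as 24.5% of genes had; DESeq2 also called 0. Kdr lay between 40.8 and 91.7 CPM (median 69.1) in 12 females and between 37.5 and 75.2 (median 56.1) in 12 males. The ranges overlapped over most of their length. The change was -0.22 ± 0.11 (edgeR adjusted p = 0.225), and it passed with library totals as the only scaling (-0.34, edgeR adjusted p = 0.0181) and in limma on log2 FPKM (-0.33, 0.0218); over the settings the adjusted p ran from 0.0181 to 0.260. Of the signalling genes, 5 of 19 tested were called lower in males: the BMP-responsive factors Id1 (-0.97) and Id3 (-0.77), Nrp2 (-0.58), the ligand Vegfb (-0.57) and Notch1 (-0.32). Of the 19 sinusoidal and 21 vascular genes tested, 0 were called by edgeR, with 3 in each list under an unadjusted p of 0.05.

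Across mice within groups, most members rose and fell together. Over the deviations of log2 CPM from the group means, Pearson's r of the 45 pairs ran from -0.42 to 0.96 with a median of 0.52 in 27 mice, and 39 pairs were above 0. In the 22 mice without the 5 libraries it ran from -0.39 to 0.97 with a median of 0.73. Stab2 and Kdr were closest (r = 0.96, Spearman's rho = 0.96, and r = 0.95 in 22 mice), followed by Stab2 and Fcgr2b (0.91, 0.90 and 0.95). Stab1 was set apart from the others by the 5 libraries, with a median r of 0.56 in 27 mice and 0.82 in 22 (0.59 and 0.97 with Stab2), and Pecam1 likewise with 0.35 and 0.70. Lyve1 did not move with the rest in either set (median r of -0.03 and 0.12), and its lowest pair was with Gja4 (-0.42 and -0.39). These values describe mice whose genes share a library, its depth and its cell content.

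**Figure D5:**
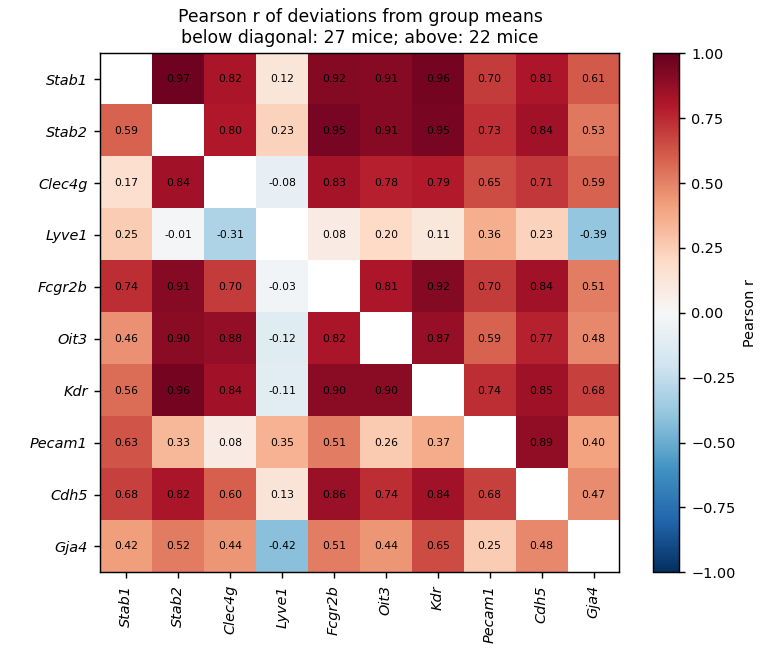
Pearson's r between members over deviations of log2 CPM from group means; below the diagonal 27 mice, above it the 22 mice without the 5 libraries that stand apart. The median r is 0.52 below and 0.73 above, and all values under 0 lie in the Lyve1 row and column.

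Of 9754 genes, those most like the mean of the 10 members by the same measure were mostly endothelial receptors and their regulators. They were Adgrf5 (r = 0.93), an adhesion receptor of endothelium, Tek (0.93), the angiopoietin receptor, Eng (0.91), the BMP co-receptor endoglin, Ptprb (0.90), a phosphatase that acts on Tek and Cdh5 complexes, the lipid phosphatase Plpp1 (0.89), the adhesion receptor Adgrl4 (0.88), the autophagosome adaptor Fyco1 (0.86) and the phosphodiesterase Pde2a (0.85). In the 22 mice the same genes had r between 0.81 and 0.95. Ranked by Spearman's rho, 6 of these 8 were again among the first 8, and ranked without the 5 libraries 4 were. Ranked by levels without subtracting the group means 5 were, with Tek at rank 32 and Fyco1 at rank 946 (r = 0.47).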

How the data were processed

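RNA from whole liver of 27 mice was sequenced by the study. The authors deposited 4 tables, 1 per experiment and sex, with estimated counts and FPKM per gene; per the submitters' processing notes HISAT and Bowtie2 were used with GRCm38.p6. Strand handling is not given in the sources used here. Deposited counts were not whole for 7.34% to 8.09% of values and were rounded. Totals were 14634602 to 19388251 per library (median 17944536). Mice were grouped by the labelled vector, sex and stage.

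In R 4.3.3, edgeR 4.0.16 (TMM scaling, filterByExpr with a minimum count of 10, quasi-likelihood test, Benjamini-Hochberg adjustment over all genes tested, threshold 0.05) was fitted to the groups compared. The Res against WDA and sex comparisons over 24 mice came from 1 fit of those mice, leaving 16 residual degrees of freedom. So did KO against WT over both sexes and the tests of a difference. Alternatives were other scalings, no filter, DESeq2 1.42.0, limma 3.58.1 on log2 of the deposited FPKM with a pseudocount of 0.1, a spread shared by all groups, and leaving out each mouse. Leaving out the 5 libraries whose summed bile duct CPM exceeded 5 times the median was chosen after the data were seen. Only the Res against WDA fits of WT males and of 24 mice were tried on simulated data. The planted changes were larger than most member changes, so the trial does not cover smaller ones. P-values weigh a change against the spread between mice within groups. Stage and experiment coincide, so those for Res against WDA do not cover variation between experiments.

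The 10 genes and all gene lists were chosen with earlier results of these data known. Every member is named in each comparison, with at most 4 called genes per list and the 8 genes most like the members' mean, among genes with a mean log2 CPM of at least 2. Some further genes are not reported here.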

Additional observations from a re-analysis of the deposited data

How the results depend on the processing

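No called member changed direction under any alternative run. For Res against WDA over 24 mice, 4 members were called, and 2 with library totals as the only scaling or with limma on FPKM. In WT males 2 members were called, 1 with either of those settings, 0 with a spread shared by all groups and 1 to 2 with a mouse left out. In KO females 1 was called, 3 by DESeq2, 2 with the shared spread and 0 to 4 with a mouse left out. In WT females 0 were called, and 1 with the shared spread. For KO against WT in Res females 0 were called, 1 by DESeq2 and with the shared spread, and 0 to 1 with a mouse left out. For HepKO against WT 0 were called, and 1 by DESeq2. For males against females 0 were called, and 1 with library totals or limma on FPKM. The counts of called members of all other comparisons did not move. Of single-gene changes, 2504 with a mouse left out and 1343 under other settings kept their side of the threshold, while 16 and 17 crossed it. No paired analysis was possible because the mouse numbers pair no mice across groups.

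Scaling by library totals alone put the median change of all genes at 0.21 for KO against WT in WDA males and at -0.19 in Res females, against -0.00 and -0.02 with TMM, so member changes there are read against those medians. With 41 to 291 counts per library, Gja4 had the fewest counts of the members. Stage and experiment cannot be told apart, and 5 libraries with high bile duct markers lie unevenly among the groups.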
